A study of Mus musculus with 6 samples.

Results

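The 42 collagen chain genes are those of the 18193 genes on the arrays whose symbol has the form Col, a number, a, and a number, such as Col1a1. Each gene stands for 1 probe set named to that gene alone, the brightest where there were several (27 of the 42 genes). They were divided by the structure of the protein into 11 fibrillar, 8 basement membrane and 23 other collagens. The arrays come from 3 groups of 2: cardiomyocytes from adult C57BL/6J males at 8 weeks, freed by perfusion of the heart (the Langendorff method), cardiac fibroblasts from postnatal day 1 hearts of both sexes, and cardiomyocytes from the same neonatal stage. Neonatal cells were separated on Percoll, a density medium, and all cells were dissociated with trypsin and collagenase and, per the labels, used fresh. The labels also describe spreading dissociated cells on a dish to separate fibroblasts, with a mitochondrial dye (TMRM) to look for remaining cardiomyocytes. Between adult and neonatal cells, age, sex and isolation differ together and cannot be told apart. Nothing in the labels states that arrays of 1 group came from separate preparations, and p-values therefore cover only their spread, which may be technical.

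Collagens are secreted proteins whose chains wind into a triple helix. Fibrillar collagens assemble into the banded fibrils that carry tension in the heart wall. Type I, made from Col1a1 and Col1a2, and type III, from Col3a1, are the main fibrils of the heart, and type V (Col5a1, Col5a2) starts and limits fibril growth. Basement membrane collagens lie in sheets around each cardiomyocyte and along vessels: type IV chains form the network, and types XV and XVIII bind to it. The remaining collagens include the beaded filaments of type VI, the FACIT collagens that sit on fibrils (types XII, XIV, XVI and others), the short-chain type VIII network and transmembrane forms. Cardiac fibroblasts are the best known source of fibrillar collagen in the heart.

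For both neonatal replicate 1 arrays the title contradicts the source name and the cell type field, and the groups here follow the source name. Of 8 cardiomyocyte markers, the median log2 RMA value was 14.03 and 14.04 in adult cardiomyocytes, 7.47 and 10.37 in fibroblasts, and 13.75 and 13.38 in neonatal cardiomyocytes. Both fibroblast arrays thus lay below every cardiomyocyte array, and replicate 2 lay closer to them. By title, the replicate 1 array at 7.47 would hold cardiomyocytes and the one at 13.75 fibroblasts, so these medians followed the source name. The 8 fibroblast markers had medians of 6.75 and 8.43 in adult cardiomyocytes, 10.18 and 10.40 in fibroblasts, and 7.72 and 8.32 in neonatal cardiomyocytes. For the 8 leukocyte markers the adult medians were 6.88 and 8.51, the fibroblast medians 12.15 and 9.62, and the neonatal cardiomyocyte medians 7.71 and 5.98. The 6 epicardial markers had medians of 5.57 and 5.75 in adult cardiomyocytes, 9.82 and 7.92 in fibroblasts, and 7.66 and 8.11 in neonatal cardiomyocytes. In the log2 of the summed signal, the fibroblast list ranged from 11.58 to 13.21 in adult cardiomyocytes, from 13.86 to 14.38 in fibroblasts and from 11.88 to 12.05 in neonatal cardiomyocytes. The leukocyte list ranged from 10.47 to 11.97, from 12.96 to 15.48 and from 9.56 to 10.79 in that order. RMA has no detection call, so no marker is at 0, and the part of other cells in the collagen values was not tested. In bulk samples, fewer cells of a type and less RNA per cell cannot be told apart.

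**Figure D1:**
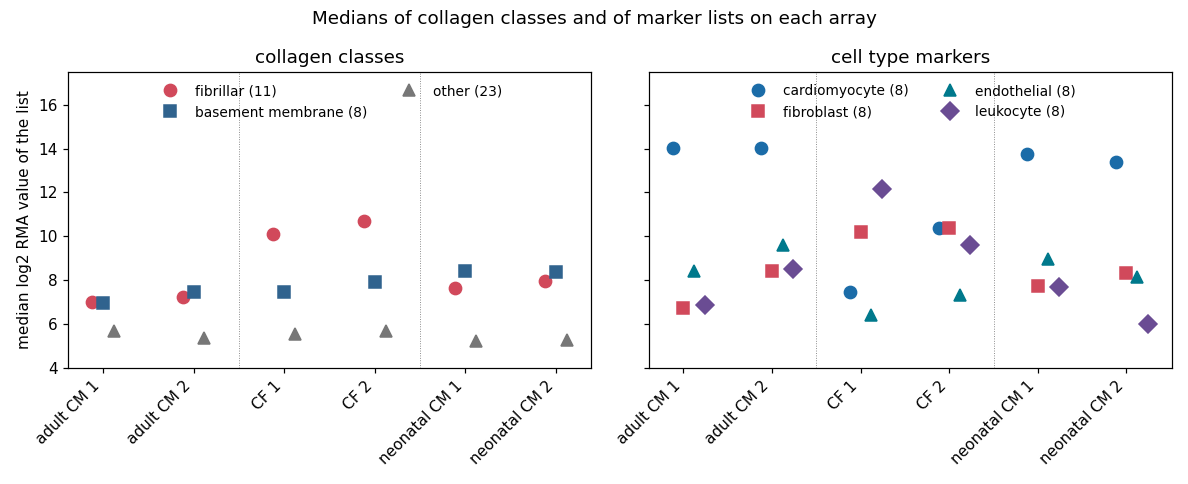
Median log2 RMA value of each collagen class (left, number of genes in brackets) and of 4 marker lists (right) on the 6 arrays, with CM for cardiomyocytes and CF for neonatal fibroblasts; each point is 1 array. The fibrillar median reached 10.12 and 10.68 on the fibroblast arrays, against 7.64 and 7.96 on the neonatal cardiomyocyte arrays, whereas the basement membrane median was 7.46 and 7.93 against 8.40 and 8.37.

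The order of group means with fibroblasts highest, neonatal cardiomyocytes between and adult cardiomyocytes lowest held for 20 of the 42 genes. These were 7 of 11 fibrillar, 4 of 8 basement membrane and 9 of 23 other collagens. How many of all genes had this order was not counted. The highest mean was in fibroblasts for 24 of the 42 genes, in adult cardiomyocytes for 12 and in neonatal cardiomyocytes for 6. Over all genes, the highest mean was in fibroblasts for 34.7%, in adult cardiomyocytes for 48.1% and in neonatal cardiomyocytes for 17.2%. In 18 of the 42 genes no group mean reached a log2 value of 6. The moderated F test of limma, which asks whether a gene differs anywhere among the 3 groups, called 10 of the 42 genes (23.8%) at an adjusted p under 0.05, against 12.6% of all genes. At an unadjusted p under 0.05 it passed 16 (against 32.2% of all genes). The called genes were Col1a1, Col5a1, Col5a2 and Col11a1 among the fibrillar, Col4a1, Col4a2 and Col4a5 among the basement membrane, and Col12a1, Col14a1 and Col16a1 among the other collagens. All 10 had the order of means given above. The calls became 0 without adult replicate 1, adult replicate 2 or fibroblast replicate 1 (12, 14 and 13 at an unadjusted p under 0.05), 6 without fibroblast replicate 2, and 0 without both neonatal replicate 1 arrays (17 unadjusted). Over all 18193 genes the F test called 2285, and under the same omissions 0, 0, 378, 1122 and 0.

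**Figure D2:**
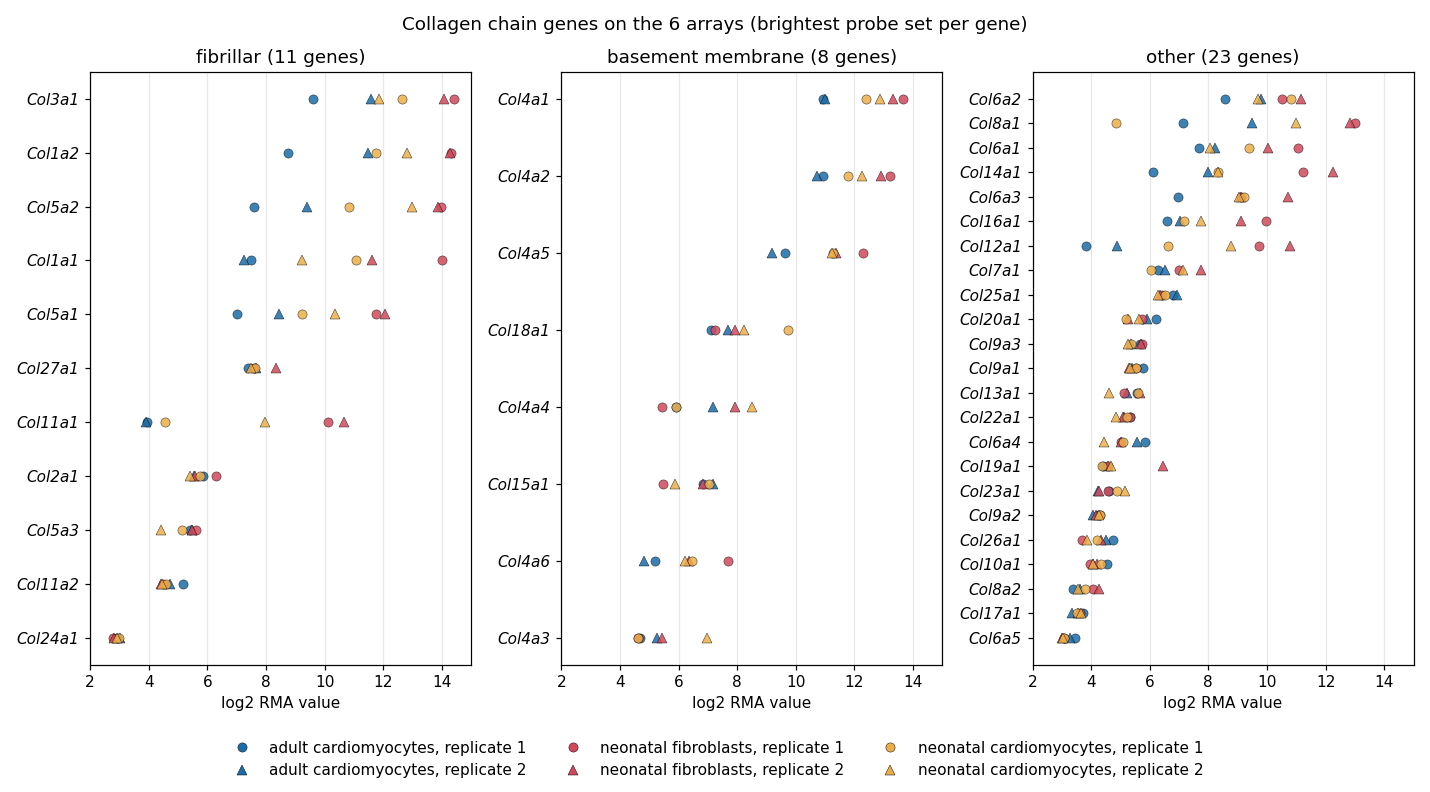
Log2 RMA value of all 42 collagen genes on the 6 arrays, in 3 panels by structural class; colour gives the group and the symbol the replicate. The called fibrillar genes have both fibroblast arrays to the right of both adult arrays, as in Col11a1 with 3.95 and 3.89 in adult cardiomyocytes against 10.12 and 10.68 in fibroblasts.

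Between the neonatal cell types, the fibrillar collagens had the largest median difference of the 3 classes, fibroblasts minus cardiomyocytes. It was 1.99 on the log2 scale for the 11 fibrillar genes (range −0.16 to 4.13), 0.13 for the 8 basement membrane genes (−1.41 to 1.04) and 0.29 for the 23 others (−0.60 to 4.99), against 0.02 for all genes. The fibrillar median is the value of Col3a1, and was 2.04 with the mean of the probe sets of each gene. Among the 24 genes with a group mean of at least 6 the medians were 2.01 for fibrillar, 0.58 for basement membrane and 1.30 for other genes. Of these 24 genes, 19 had their highest mean in fibroblasts, so this filter favours genes high in fibroblasts. No collagen passed the threshold in limma (0 of 42, against 0.819% of all genes, 0.143% higher and 0.676% lower). At an unadjusted p under 0.05, 12 were higher in fibroblasts and 1 was lower, and for all genes those shares were 7.31% and 8.95%. The fibroblast arrays lay above both cardiomyocyte arrays in 17 of the 42 genes, against 23.2% of all genes, and below both in 3, against 22.3% (45.4% in either direction). At an unadjusted p in either direction the share of all genes was 16.3%. Without neonatal cardiomyocyte replicate 2, which leaves 1 array in that group, the difference was 5.84 for Col11a1 and 8.06 for Col8a1. With the groups that the titles give, which the marker medians did not follow, the fibrillar median was −0.19. Without both neonatal replicate 1 arrays it was 1.08.

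Col1a1, a chain of type I collagen, had 13.99 and 11.63 in fibroblasts, against 11.07 and 9.22 in neonatal cardiomyocytes. The groups did not overlap, but the arrays within each group lay further apart than the nearest arrays of the different groups. The difference was 2.66 ± 0.95 (SE, n = 2 arrays each; 6.34-fold, limma adjusted p = 0.264). Col1a2, the other chain of type I, had 14.30 and 14.28 in fibroblasts, against 11.76 and 12.83 in neonatal cardiomyocytes (difference 1.996 ± 0.93, adjusted p = 0.386). Col3a1, the type III chain, had 14.41 and 14.06 in fibroblasts, against 12.65 and 11.84 in neonatal cardiomyocytes (1.99 ± 0.69, adjusted p = 0.253). Fibroblast values of Col1a2 and Col3a1 were near the highest value of any probe set on those arrays, 14.41 and 14.42. Their differences from fibroblasts may therefore be lower limits, which was not tested. The less bright Col3a1 probe set had 12.33 and 12.002 in fibroblasts, against 8.90 and 8.41 in neonatal cardiomyocytes, a difference of 3.51. The second of the Col1a2 probe sets had 13.49 and 12.95 in fibroblasts, against 10.51 and 11.06 in neonatal cardiomyocytes, a difference of 2.44. Col5a1 had 11.76 and 12.06 in fibroblasts, against 9.21 and 10.36 in neonatal cardiomyocytes (2.12 ± 0.60, adjusted p = 0.183). Col5a2 had 13.97 and 13.86 in fibroblasts, against 10.83 and 12.98 in neonatal cardiomyocytes (2.01 ± 0.89, adjusted p = 0.359). By the brightest probe set of each of these genes, both fibroblast arrays were the highest of the neonatal arrays, and the step was between 1.99 and 2.66. The second Col1a1 probe set had 10.76 and 12.21 in fibroblasts, against 9.05 and 10.85 in neonatal cardiomyocytes. There the groups overlapped, and the difference was 1.53.

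Col11a1, which joins type V in fibrils and is best known from cartilage, had the largest fibrillar difference. It measured 10.12 and 10.68 in fibroblasts, against 4.56 and 7.96 in neonatal cardiomyocytes, a difference of 4.13 ± 1.08 (17.6-fold, limma adjusted p = 0.158). The fibroblast arrays agreed to within 0.56, whereas the cardiomyocyte arrays were 3.41 apart, with replicate 2 the higher. Markers of cartilage and bone (5 measured of 6) had medians of 5.20 and 5.78 in fibroblasts, against 5.88 and 5.68 in neonatal cardiomyocytes. Among them Sox9, a regulator of cartilage genes, had 7.62 and 8.71 in fibroblasts, against 5.88 and 6.71 in neonatal cardiomyocytes (1.87, adjusted p = 0.142). Col2a1, the major fibrillar chain of cartilage, stayed between 5.41 and 6.30 on the neonatal arrays. The remaining fibrillar genes, Col2a1, Col5a3, Col11a2, Col24a1 and Col27a1, differed by −0.16 to 0.78.

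Promoter sequences are shown for fibrillar genes with high fibroblast values that have an entry in the RefSeq table (build GRCm38.p6). Each line gives the 250 bases before the annotated start, 5′ to 3′ on the plus strand, from chr6:4505368-4505617 for Col1a2, chr1:45311288-45311537 for Col3a1, chr2:27886175-27886424 for Col5a1 and chr3:114030290-114030539 for Col11a1. Capitals mark CCAAT and GGGCGG, letters in which CCAAT-binding and Sp1-type factors are known to bind, on either strand.
Col1a2: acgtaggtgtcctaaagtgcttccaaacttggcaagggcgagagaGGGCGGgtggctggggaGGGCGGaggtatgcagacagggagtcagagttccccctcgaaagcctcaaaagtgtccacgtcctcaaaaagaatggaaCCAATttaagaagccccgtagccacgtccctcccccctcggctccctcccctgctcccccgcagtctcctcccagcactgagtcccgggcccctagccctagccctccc
Col3a1: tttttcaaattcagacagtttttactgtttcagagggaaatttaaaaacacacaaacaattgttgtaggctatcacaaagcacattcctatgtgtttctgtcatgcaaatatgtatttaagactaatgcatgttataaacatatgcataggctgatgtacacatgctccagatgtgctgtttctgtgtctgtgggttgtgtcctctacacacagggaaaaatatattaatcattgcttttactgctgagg
Col5a1: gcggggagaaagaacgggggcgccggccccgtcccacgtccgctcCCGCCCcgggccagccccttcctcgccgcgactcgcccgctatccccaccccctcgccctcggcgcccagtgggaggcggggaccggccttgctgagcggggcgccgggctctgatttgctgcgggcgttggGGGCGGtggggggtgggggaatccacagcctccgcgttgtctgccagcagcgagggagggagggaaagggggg
Col11a1: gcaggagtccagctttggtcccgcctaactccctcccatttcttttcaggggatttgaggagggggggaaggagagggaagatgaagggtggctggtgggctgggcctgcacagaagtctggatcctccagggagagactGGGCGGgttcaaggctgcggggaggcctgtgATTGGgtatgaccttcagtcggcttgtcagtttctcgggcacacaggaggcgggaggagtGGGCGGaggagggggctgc
Col1a2 holds 1 CCAAT and 2 GGGCGG, Col11a1 holds 1 CCAAT (on the minus strand) and 2 GGGCGG, Col5a1 holds 0 CCAAT and 2 GGGCGG (1 on each strand), and Col3a1 holds 0 of either in this stretch. Of the 42 collagen genes 33 have an entry, with 36 windows that also include the bases just after the start. CCAAT was found in 13 of these 36 windows (36.1%), against 37.4% of 32851 windows of all genes. GGGCGG was found in 22 (61.1%), against 35.7%. By class, GGGCGG was found for 6 of 8 fibrillar, 5 of 7 basement membrane and 10 of 18 other genes, and the matches are letters only.

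**Figure D3:**
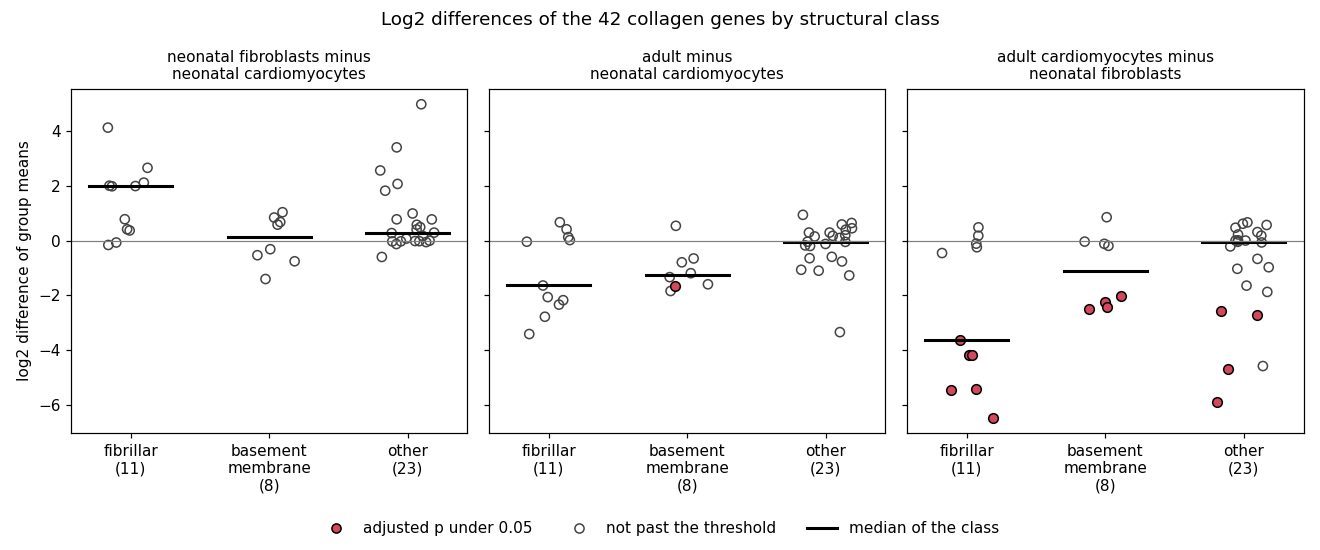
Log2 differences of group means for the 42 collagen genes in each comparison, by class (number of genes in brackets); each circle is 1 gene, filled where the limma adjusted p was under 0.05, and the bar is the median of the class. The fibrillar medians were 1.99, −1.64 and −3.63 from left to right, and filled circles number 0, 1 and 14.

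Among the collagens outside these classes, the fibril-associated Col12a1, Col14a1 and Col16a1 had fibroblast arrays above both neonatal cardiomyocyte arrays. Col14a1, which binds to the surface of type I fibrils, had 11.21 and 12.25 in fibroblasts, against 8.32 and 8.32 in neonatal cardiomyocytes. The difference was 3.41 ± 0.68 (10.6-fold, limma adjusted p = 0.0958), and the sign was the same in its 3 probe sets. Col16a1 had 9.95 and 9.11 in fibroblasts, against 7.18 and 7.74 in neonatal cardiomyocytes, a difference of 2.07 ± 0.38 with the smallest adjusted p of the 42 genes in this comparison (0.0824). Col12a1, a fibril-associated collagen of tissues under strain, had 9.74 and 10.79 in fibroblasts, against 6.63 and 8.76 in neonatal cardiomyocytes (2.57 ± 0.82, adjusted p = 0.225, the same sign in 3 of 4 probe sets).

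Col8a1, a short-chain collagen of vessel walls and valves, had the largest difference of all 42 genes and the widest spread. It measured 12.99 and 12.83 in fibroblasts, against 4.85 and 10.99 in neonatal cardiomyocytes, a difference of 4.99 ± 2.05 (limma adjusted p = 0.323). Neonatal cardiomyocyte replicate 1 was lower than replicate 2 by 6.13, and it was the lowest of the 6 arrays in all 3 probe sets of the gene. Without replicate 1 the difference was 1.92 (adjusted p = 0.666) and without replicate 2 it was 8.06 (adjusted p = 0.0487), and over the 16 alternatives the adjusted p ran up to 1. The partner chain Col8a2 stayed between 3.57 and 4.27 on the neonatal arrays.

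Type VI collagen, whose chains form beaded filaments near the cell surface, varied less between the neonatal cells. Col6a1 had 11.04 and 10.04 in fibroblasts, against 9.39 and 8.04 in neonatal cardiomyocytes (1.83 ± 0.57, limma adjusted p = 0.217). Col6a2 had 10.50 and 11.17 in fibroblasts, against 10.83 and 9.68 in neonatal cardiomyocytes (0.58 ± 0.59, adjusted p = 0.738). Col6a3 had 9.11 and 10.71 in fibroblasts, against 9.22 and 9.06 in neonatal cardiomyocytes (0.78 ± 0.84, adjusted p = 0.765). The groups overlapped for Col6a2 and Col6a3 and not for Col6a1.

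The basement membrane collagens did not share one pattern between the neonatal cells: 4 had a higher and 4 a lower mean in fibroblasts. Col4a1 and Col4a2 encode the chains of the type IV network found in nearly all basement membranes, and their start sites lie 21 bases apart on opposite strands. Col4a1 had 13.65 and 13.31 in fibroblasts, against 12.40 and 12.87 in neonatal cardiomyocytes (0.84 ± 0.24, limma adjusted p = 0.180). Col4a2 had 13.21 and 12.89 in fibroblasts, against 11.77 and 12.26 in neonatal cardiomyocytes (1.04 ± 0.25, adjusted p = 0.133). Both genes had the arrays in the same order within the neonatal groups, and differed there by 0.32 to 0.49 between replicates. The 78 bases that the promoter windows of both genes share, chr8:11312777-11312854 on the plus strand of GRCm38.p6, hold 1 GGGCGG, in capitals, and 0 CCAAT. The full window of each gene does hold CCAAT, outside the shared stretch.
Col4a1/Col4a2: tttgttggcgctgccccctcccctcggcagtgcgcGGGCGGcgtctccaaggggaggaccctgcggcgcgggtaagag
Col18a1, a basement membrane collagen whose C-terminal fragment is endostatin, ran the other way, with 7.23 and 7.94 in fibroblasts, against 9.75 and 8.23 in neonatal cardiomyocytes. The groups did not overlap, and the difference was −1.41 ± 0.57 (adjusted p = 0.319, the same sign in both probe sets). Col15a1, the related type XV chain, had 5.48 and 6.82 in fibroblasts, against 7.04 and 5.88 in neonatal cardiomyocytes, and the groups overlapped (−0.31 ± 0.58, adjusted p = 0.887). Endothelial markers, whose cells are a known source of both collagens, had medians of 6.42 and 7.30 in fibroblasts, against 8.95 and 8.15 in neonatal cardiomyocytes, and their part was not tested.

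In the comparison of adult with neonatal cardiomyocytes, age, sex and isolation differ together. Later mentions of the ages or of an age count name this comparison and not an effect of age alone. Means were lower in adult cells for 26 of the 42 genes and higher for 16. The median difference, adult minus neonatal, was −1.64 for the fibrillar genes (range −3.42 to 0.67), −1.27 for the basement membrane genes (−1.85 to 0.54) and −0.04 for the others (−3.35 to 0.94), against 0.09 for all genes. Among the genes with a group mean of at least 6 the medians were −2.18, −1.34 and −0.70 in that order. In limma 1 of 42 fell (2.38%, against 1.22% of all genes) and 0 rose (against 1.08%), a share near the 2.30% of all genes called in either direction. At an unadjusted p under 0.05, 10 were lower and 2 higher, against 11.7% and 11.1% of all genes (22.8% in either direction). The adult arrays lay below both neonatal arrays in 16 genes (38.1%, against 23.8% of all genes) and above both in 7 (16.7%, against 33.9%), and 57.7% of all genes did not overlap in either direction.

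Col4a1 was the gene that fell. It measured 10.94 and 10.997 in adult cardiomyocytes, against 12.40 and 12.87 in neonatal cardiomyocytes, and the adult arrays agreed to within 0.06. The difference was −1.67 ± 0.24 (3.17-fold lower, limma adjusted p = 0.0432), and both probe sets agreed in sign. The call held in 3 of 16 alternatives, with adjusted p from 0.0380 to 0.228 and the difference between −2.29 and −1.41. It ended when any 1 of the 6 arrays was left out, with adjusted p from 0.0625 to 0.228, and without neonatal cardiomyocyte replicate 1 Col11a1 was called instead. Col4a2 had 10.93 and 10.71 in adult cardiomyocytes, against 11.77 and 12.26 in neonatal cardiomyocytes (−1.19 ± 0.25, adjusted p = 0.0818). Col4a5, a type IV chain that pairs with Col4a6 or with the chains of Col4a3 and Col4a4, had 9.64 and 9.19 in adult cardiomyocytes, against 11.28 and 11.24 in neonatal cardiomyocytes (−1.85 ± 0.35, adjusted p = 0.0705). Col4a6 had 5.20 and 4.81 in adult cardiomyocytes, against 6.48 and 6.21 in neonatal cardiomyocytes (−1.34 ± 0.47, adjusted p = 0.187). In each of these genes both adult arrays lay below both neonatal ones.

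**Figure D4:**
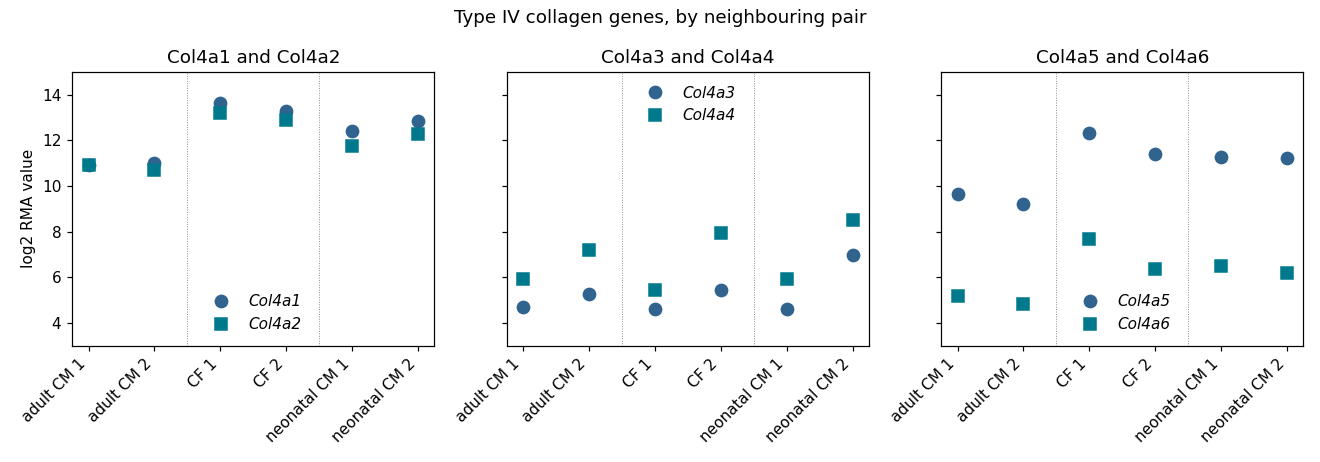
Log2 RMA value of the type IV collagen genes on the 6 arrays, 1 panel for each neighbouring gene pair, with CM for cardiomyocytes and CF for fibroblasts; each point is 1 array. Col4a1 and Col4a2 are lowest on the adult arrays, whereas Col4a3 and Col4a4 are higher on replicate 2 than on replicate 1 of every group.

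Col4a3 and Col4a4, which encode chains of the specialised network of kidney and lung basement membranes, did not follow the other type IV genes. They were chosen for this description after their values were seen. Col4a4 had 5.92 and 7.19 in adult cardiomyocytes, 5.43 and 7.92 in fibroblasts, and 5.92 and 8.50 in neonatal cardiomyocytes, for replicates 1 and 2 of each group. Col4a3 had 4.70 and 5.28, 4.62 and 5.43, and 4.61 and 6.96 in that order. Replicate 2 was the higher array in every group for both genes, with replicate 1 minus replicate 2 between −2.58 and −0.58, and the groups overlapped. By contrast Col4a5 and Col4a6, whose start sites lie 1343 bases apart on opposite strands, were higher on replicate 1 in every group.

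Of the fibrillar genes, the 6 with the largest differences had both adult arrays below both neonatal cardiomyocyte arrays, and none passed the threshold. Col5a2 had 7.57 and 9.39 in adult cardiomyocytes, against 10.83 and 12.98 in neonatal cardiomyocytes (−3.42 ± 0.89, 10.7-fold lower, limma adjusted p = 0.120). Col1a1 had 7.48 and 7.24 in adult cardiomyocytes, against 11.07 and 9.22 in neonatal cardiomyocytes (−2.79 ± 0.95, adjusted p = 0.178). Col11a1 had 3.95 and 3.89 in adult cardiomyocytes, against 4.56 and 7.96 in neonatal cardiomyocytes (−2.34 ± 1.08, adjusted p = 0.273). Col1a2 had 8.74 and 11.49 in adult cardiomyocytes, against 11.76 and 12.83 in neonatal cardiomyocytes (−2.18 ± 0.93, adjusted p = 0.245). Col5a1 had 6.99 and 8.44 against 9.21 and 10.36 (−2.07 ± 0.60, adjusted p = 0.140), and Col3a1 9.62 and 11.59 against 12.65 and 11.84 (−1.64 ± 0.69, adjusted p = 0.239), adult before neonatal cardiomyocytes. In Col1a2, Col3a1, Col5a1 and Col5a2, adult replicate 2 was higher than replicate 1, with replicate 1 minus replicate 2 between −2.74 and −1.45. On the same arrays the fibroblast marker median was 8.43 on replicate 2 and 6.75 on replicate 1. The leukocyte (8.51 and 6.88), endothelial (9.62 and 8.42) and smooth muscle and pericyte medians (9.24 and 7.91) were also higher on adult replicate 2, and the part of these cells in the adult values was not tested. The median fibrillar difference was −0.66 without adult replicate 1, −2.31 without adult replicate 2, −1.24 without neonatal cardiomyocyte replicate 1 and −0.64 without neonatal cardiomyocyte replicate 2.

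Outside these classes, Col12a1 had the largest difference between adult and neonatal cardiomyocytes (−3.35 ± 0.82, limma adjusted p = 0.107). Its brightest probe set had 3.82 and 4.88 in adult cardiomyocytes, against 6.63 and 8.76 in neonatal cardiomyocytes. The second Col12a1 probe set had 6.68 and 6.24 in adult cardiomyocytes, against 6.72 and 6.60 in neonatal cardiomyocytes. Its groups overlapped, and its difference was only −0.19. Col14a1 had 6.10 and 7.98 in adult cardiomyocytes, against 8.32 and 8.32 in neonatal cardiomyocytes (−1.28 ± 0.68, adjusted p = 0.325). The less bright Col14a1 probe sets differed by −0.24 and 0.05. Col18a1, of the basement membrane class, had 7.10 and 7.68 in adult cardiomyocytes, against 9.75 and 8.23 in neonatal cardiomyocytes (−1.60 ± 0.57, limma adjusted p = 0.192). The endothelial marker medians were 8.42 and 9.62 in adult cardiomyocytes, against 8.95 and 8.15 in neonatal cardiomyocytes. The part of endothelial cells was not tested here either. Col8a1 had 7.15 and 9.49 in adult cardiomyocytes, between the 4.85 and 10.99 of the neonatal arrays. Col15a1, with 6.83 and 7.17 in adult cardiomyocytes against 7.04 and 5.88 in neonatal ones, was the only basement membrane gene with a higher adult mean (0.54 ± 0.58, adjusted p = 0.600).

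Adult cardiomyocytes against neonatal fibroblasts gave the widest separation, in a comparison where cell type, age, sex and isolation differ together. It shares its arrays with the comparisons above, so its values are not separate evidence of them. In limma 14 of the 42 genes fell (33.3%, against 11.0% of all genes) and 0 rose (against 10.1%), with 21.0% of all genes called in either direction. At an unadjusted p under 0.05, 16 were lower (against 19.3% of all genes) and 1 higher (against 17.7%, or 37.0% in either direction). The adult arrays lay below both fibroblast arrays in 21 genes (against 30.2% of all genes) and above both in 8 (against 37.8%, or 68.0% in either direction). The median difference, adult cardiomyocytes minus fibroblasts, was −3.63 for the fibrillar genes, −1.10 for the basement membrane genes and −0.07 for the others, against 0.09 for all genes. Among the genes with a group mean of at least 6 the medians were −4.19, −2.02 and −2.23 in that order. Many genes passed this filter through their fibroblast values. The highest mean was in fibroblasts for 7 of the 7 fibrillar, 4 of the 7 basement membrane and 8 of the 10 other genes that passed. These medians therefore cannot say whether the classes differed alike. Of the fibrillar genes 6 of 11 fell. Col11a1 fell by 6.48 on the log2 scale (89.1-fold, limma adjusted p = 0.0186), Col1a1 fell by 5.45 (43.7-fold, 0.0201) and Col5a2 fell by 5.43 (43.1-fold, 0.0178). Col5a1 fell by 4.19, Col1a2 fell by 4.18 and Col3a1 fell by 3.63. Whether the values of Col1a2 and Col3a1 are lower limits was not tested. Less bright probe sets differed more in some of these genes and less in others. The less bright Col3a1 probe set differed by −5.81, that of Col11a1 by −6.75 and that of Col5a2 by −5.94. The second Col1a2 probe set differed by −5.16 and the third by −4.11. The less bright Col1a1 probe set differed by −4.525, and those of Col5a1 by −4.14 and −2.77. The other 5 fibrillar genes differed by −0.46 to 0.48.

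Of the basement membrane genes 4 of 8 fell, all type IV chains and all by less than the called fibrillar genes. Col4a1 fell by 2.51 ± 0.24 (5.69-fold, limma adjusted p = 0.00759), Col4a5 fell by 2.43, Col4a2 fell by 2.23 and Col4a6 fell by 2.02. Col4a5 had 9.64 and 9.19 in adult cardiomyocytes, against 12.30 and 11.39 in fibroblasts, and Col4a6 had 5.20 and 4.81 against 7.70 and 6.34. Col4a1 and Col4a2 had the smallest adjusted p of the 42 genes although genes such as Col11a1 differed more, with a larger SE. Col15a1 pointed the other way, with 6.83 and 7.17 in adult cardiomyocytes, against 5.48 and 6.82 in fibroblasts (0.86 ± 0.58, adjusted p = 0.337). Among the others 4 of 23 fell: Col12a1 fell by 5.92 (60.4-fold, adjusted p = 0.0131, the same sign in 2 of its 4 probe sets), Col14a1 fell by 4.69, Col16a1 fell by 2.72 and Col6a1 fell by 2.59. The second Col12a1 probe set differed by only −2.29. Col16a1 had 6.58 and 7.05 in adult cardiomyocytes, against 9.95 and 9.11 in fibroblasts, and Col6a1 had 7.67 and 8.24 against 11.04 and 10.04. Its partner chains did not pass the threshold. Col6a2 had 8.56 and 9.81 in adult cardiomyocytes, against 10.50 and 11.17 in fibroblasts (−1.65 ± 0.59, adjusted p = 0.109), and Col6a3 had 6.97 and 9.10 against 9.11 and 10.71 (−1.88 ± 0.84, adjusted p = 0.176). Col8a1, with 7.15 and 9.49 in adult cardiomyocytes against 12.99 and 12.83 in fibroblasts, did not pass (−4.59 ± 2.05, adjusted p = 0.174).

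The 14 calls were 0 without adult cardiomyocyte replicate 1 (14 at an unadjusted p under 0.05), 3 without adult replicate 2, 7 without fibroblast replicate 1 and 7 without fibroblast replicate 2. Over all 18193 genes the calls were 3829, and under the same omissions 0, 350, 1083 and 1941, so the loss was not limited to collagens. Without both neonatal replicate 1 arrays they were 4 (Col1a1, Col4a1, Col11a1 and Col12a1), and with the titles' grouping 0, where 8 passed at an unadjusted p under 0.05. Over all genes these settings called 717 and 137. The median fibrillar difference stayed between −4.61 and −2.65 when single arrays were left out.

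Probe sets of 1 gene did not always order the replicates alike. The brightest Col1a1 probe set had 7.48 and 7.24 in adult cardiomyocytes, 13.99 and 11.63 in fibroblasts, and 11.07 and 9.22 in neonatal cardiomyocytes, replicate 1 first. The other Col1a1 probe set had 6.04 and 7.87 in adult cardiomyocytes, 10.76 and 12.21 in fibroblasts, and 9.05 and 10.85 in neonatal cardiomyocytes, so that its replicates stood in the reverse order in each group. Between groups both probe sets gave the same signs, but by the less bright one the fibroblast and neonatal cardiomyocyte arrays overlapped. The mean of both had limma adjusted p = 0.0319 for the adult against the neonatal cardiomyocytes, where the brighter alone had 0.178. The 3 probe sets of Col1a2 kept one order of the groups. As a measure of RNA quality, the 3′ minus the 5′ control probe set of Gapdh differed by 0.09 to 0.24 over the 6 arrays, and that of Actb by 0.80 and 0.81 in adult cardiomyocytes, 0.26 and 0.31 in fibroblasts, and 0.77 and 0.45 in neonatal cardiomyocytes.

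**Figure D5:**
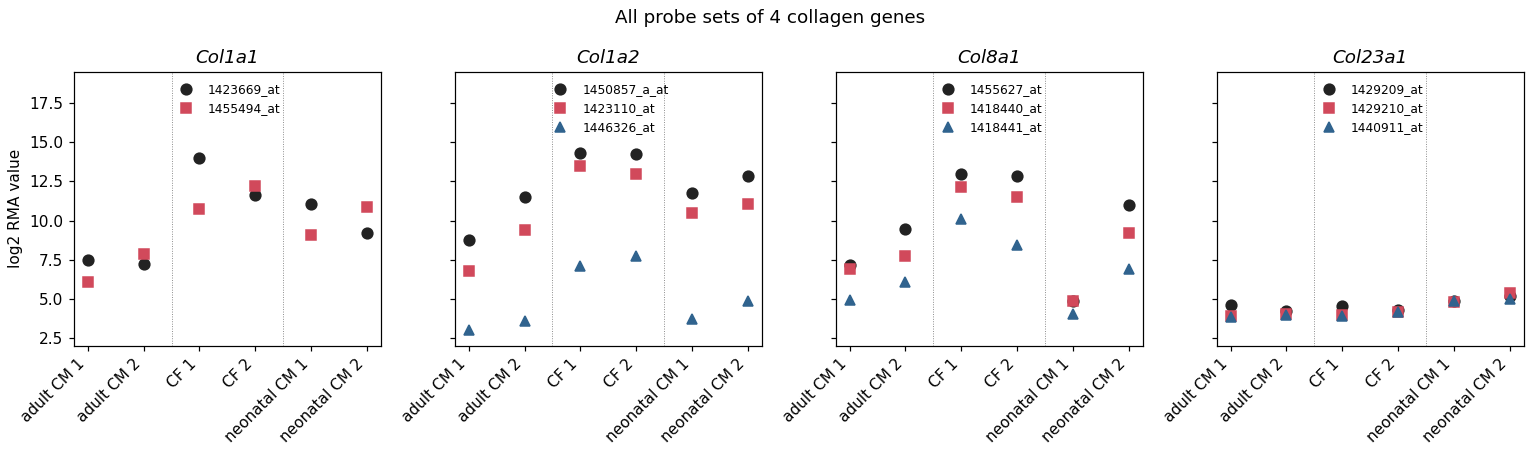
Log2 RMA value of every probe set of Col1a1, Col1a2, Col8a1 and Col23a1 on the 6 arrays, with CM for cardiomyocytes and CF for fibroblasts; each point is 1 probe set on 1 array. The 2 Col1a1 probe sets cross between replicates of the same neonatal group, and the 3 Col8a1 probe sets share the low value on neonatal cardiomyocyte replicate 1.

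Wide replicate gaps were more frequent among the collagens than over all genes, and this was not tested. The replicates were more than 1 log2 unit apart in 23.8% of the collagens in adult cardiomyocytes (6.45% of all genes), 21.4% in fibroblasts (9.64%) and 33.3% in neonatal cardiomyocytes (11.1%). The widest gaps were 2.74 for Col1a2 in adult cardiomyocytes, 2.49 for Col4a4 in fibroblasts and 6.13 for Col8a1 in neonatal cardiomyocytes.

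Genes that modify, process and bind collagen were described by lists chosen with earlier results known. Of 17 measured genes of collagen modification and folding, 0 were called in limma between the neonatal cell types or between the ages (7 and 4 at an unadjusted p under 0.05, against 16.3% and 22.8% of all genes), and 7 were lower in adult cardiomyocytes than in fibroblasts past the threshold (against 11.0% of all genes). The median difference, fibroblasts minus neonatal cardiomyocytes, was 0.91, with 3 of 17 lower. Plod2, a lysyl hydroxylase for crosslinks, had 12.45 and 12.47 in fibroblasts, against 9.10 and 10.51 in neonatal cardiomyocytes (2.65, adjusted p = 0.0774). Serpinh1, the collagen chaperone HSP47, had 10.79 and 10.95 in adult cardiomyocytes, against 13.11 and 13.25 in fibroblasts (−2.31, adjusted p = 0.0217). Of 10 genes of procollagen processing and crosslinking, 1 rose past the threshold in fibroblasts over neonatal cardiomyocytes (against 0.143% of all genes). It was Loxl1, a lysyl oxidase relative (3.18, limma adjusted p = 0.0424). Against fibroblasts, 4 of the 10 genes were lower in adult cardiomyocytes and 1 higher (against 11.0% and 10.1% of all genes). Among the lower was the lysyl oxidase gene Lox (−6.64, limma adjusted p = 0.0202). It measured 5.32 and 7.49 in adult cardiomyocytes, against 13.15 and 12.93 in fibroblasts.

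Of 8 collagen receptor and uptake genes, 0 were called between the neonatal cells or the ages (3 and 2 at an unadjusted p under 0.05, against 16.3% and 22.8% of all genes). The largest fibroblast differences over neonatal cardiomyocytes were in Mrc2, an endocytic collagen receptor (3.54, limma adjusted p = 0.179), and Ddr2, a receptor kinase for fibrillar collagen (2.68, adjusted p = 0.305). For Mrc2, neonatal cardiomyocyte replicate 2 was also above replicate 1, with 7.94 and 5.48. Against fibroblasts, 2 of the 8 genes fell in adult cardiomyocytes (against 11.0% of all genes). They were Itgb1, the integrin chain shared by collagen receptors, and Ddr1, with differences of −1.50 and −2.17. Of 14 basement membrane partners, 1 fell past the threshold in adult against neonatal cardiomyocytes (against 1.22% of all genes). It was the laminin chain gene Lamb1 (−2.04, limma adjusted p = 0.0392). Lamb1 had 9.28 and 9.99 in adult cardiomyocytes, against 11.72 and 11.63 in neonatal cardiomyocytes. Nid2, which links laminin to type IV collagen, had 6.38 and 7.58 in adult cardiomyocytes, against 9.21 and 9.52 in neonatal cardiomyocytes (−2.39, adjusted p = 0.0646). The list's median difference, adult minus neonatal, was −0.76, and that of fibroblasts minus neonatal cardiomyocytes was 0.45.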

How the data were processed

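Total RNA was labelled with biotin and hybridised to one-colour Affymetrix arrays, 6 in all. The deposited table holds log2 values for 45101 probe sets that the authors made with RMA, per the submitters' processing notes. In RMA, probe intensities are background corrected, quantile normalized and combined into 1 value per probe set. The RMA version is not stated in those notes, there is no detection call, and the number of arrays limits the precision. Of these, 34945 carried a single gene symbol in the platform annotation, and keeping the brightest per gene left 18193 genes. All 6 arrays entered limma 3.58.1 (R 4.3.3) with 3 group means (lmFit, eBayes), which left 3 residual degrees of freedom. Tests were two-sided, with Benjamini-Hochberg adjustment across the 18193 genes and a threshold of 0.05. The fit was tested on simulated data. Values are mean log2 differences ± SE.

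Members, classes and lists were chosen with earlier results of these data known. Values on all arrays were given for collagens past the threshold, for 12 chains picked by name, and for the 3 largest differences per class and comparison among genes with a group mean of at least 6. Other genes named are cell type markers and list genes past the threshold or among the 3 largest differences of their list. Alternatives were the titles' grouping, leaving out arrays, a replicate block, a filter on low values, other normalization, probe set and variance choices, and all probe sets tested, which was added after seeing the data. The marker medians did not follow the titles' grouping. Promoter windows came from RefSeq (GRCm38.p6). Protein sequences were not used here. Coordinates are not given for the probe sets, since the sources used here name no build for them.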

Additional observations from a re-analysis of the deposited data

How the results depend on the processing

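The direction of every collagen call between adult cardiomyocytes and fibroblasts held in all 16 alternatives, while the number of calls changed when arrays were left out. For the named genes, 820 values under an alternative stayed on their side of the threshold, 83 lost and 9 gained a call, and 0 called values changed sign. The replicate numbers of the titles are shared by the groups, but nothing says whether they pair arrays or mark a batch. Same-numbered arrays deviated together with r = 0.183 to 0.268 over 18193 genes, and the cause was not tested. With the replicate block, the age comparison called 2 collagens, Col12a1 (adjusted p = 0.0343, against 0.107 without it) and Col4a5 (0.0479, against 0.0705), in place of Col4a1 (0.0514, against 0.0432). Counts when single arrays were left out ranged from 0 to 2 between the neonatal cells, 0 to 1 between the ages, 0 to 14 for adult cardiomyocytes against fibroblasts and 0 to 11 in the F test. With the titles' grouping all counts were 0 (2, 13, 8 and 10 at an unadjusted p under 0.05, in that order), and without both neonatal replicate 1 arrays they were 0 between the ages, 4 for adult cardiomyocytes against fibroblasts and 0 in the F test (13, 18 and 17 unadjusted). The age count was also 0 after a second quantile normalization, with only the 2 groups compared, and with all probe sets tested (11, 10 and 12 unadjusted).

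Median differences are given as fibroblasts minus neonatal cardiomyocytes, adult minus neonatal cardiomyocytes, and adult cardiomyocytes minus fibroblasts. With single arrays left out, the first ranged from 0.30 to 0.60 for all 42 genes, 1.15 to 1.99 for fibrillar, 0.014 to 0.55 for basement membrane and 0.056 to 0.47 for other collagens. The second ranged from −0.36 to −0.11, −2.31 to −0.64, −1.63 to −1.19 and −0.09 to −0.01, and the third from −0.80 to −0.20, −4.61 to −2.65, −1.35 to −1.05 and −0.23 to 0.02, in the same order of classes. With the titles' grouping the first was −0.19 for fibrillar, −0.41 for basement membrane and 0.068 for other genes, and the fibrillar median was −2.52 in the second and −2.75 in the third. Without both neonatal replicate 1 arrays the first was 1.08 for fibrillar and 0.60 for other genes, the second −1.24 for fibrillar and −1.63 for basement membrane, and the third −0.80 for all 42. With the filter on low values (a log2 value of at least 6 on 2 arrays) the first was 1.04 for all members left, 0.58 for basement membrane and 1.83 for other genes. The second was then −1.28 for all, −2.18 for fibrillar and −0.76 for other, and the third −2.51, −4.19 and −2.59, with −2.02 for basement membrane; the filter drops low genes by construction. With members of a highest group mean of at least 6, the first was 0.58 for basement membrane and 1.30 for other genes, the second −1.23 for all, −2.18 for fibrillar and −0.70 for other, and the third −2.47, −4.19, −2.02 and −2.23 for all, fibrillar, basement membrane and other. With type IV chains alone as basement membrane, that median was 0.63 in the first and −2.12 in the third. With the mean of probe sets the first was 0.14 for other genes. Centring arrays on their median moved the median of all 18193 genes from 0.09 to 0.24 in the third. The cause of these shifts was not tested beyond the filters.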

Other observations

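Some collagens with low values stood out, and all were chosen after their values were seen. Col23a1, a transmembrane collagen, had 4.61 and 4.24 in adult cardiomyocytes, 4.56 and 4.27 in fibroblasts, and 4.87 and 5.16 in neonatal cardiomyocytes. All 3 of its probe sets had both neonatal cardiomyocyte arrays above the other 4, and the difference of fibroblasts from neonatal cardiomyocytes was −0.60 ± 0.23 (limma adjusted p = 0.296). Col19a1, a FACIT collagen, had 4.59 and 6.47 in fibroblasts, and the other 4 arrays lay between 4.38 and 4.69. A second Col19a1 probe set had 3.01 and 6.25 in fibroblasts, with the other 4 arrays between 3.06 and 3.33. The third stayed in fibroblasts within the 3.91 to 4.64 of the other 4 arrays. Col9a1, a chain of a cartilage FACIT collagen, was higher on neonatal cardiomyocyte replicate 1 (6.13) than on the other 5 arrays (3.81 to 4.29) by its less bright probe set, whereas the brighter one stayed between 5.28 and 5.79.

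Both adult arrays lay above both neonatal cardiomyocyte arrays in 7 collagens (16.7%, against 33.9% of all genes). They were Col5a3, Col6a4, Col6a5, Col11a2, Col20a1, Col25a1 and Col26a1. Of these, only Col20a1 and Col25a1 had a group mean of at least 6. The differences of the 7 genes did not pass the threshold. The largest was in Col6a4, a type VI chain, with 5.83 and 5.56 in adult cardiomyocytes, against 5.08 and 4.43 in neonatal cardiomyocytes (0.94, limma adjusted p = 0.136).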
